A study of Rattus rattus with 8 samples.

Results

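Replicate 2 made up 2 of the 8 RNA-seq libraries of a study of neonatal rat cardiomyocytes, 1 from cells sorted as diploid (2n) and 1 from cells sorted as tetraploid (4n). It was set against the 6 libraries of replicates 1, 3 and 4, which are also 1 of each fraction per replicate. Replicate 2 was singled out because Bnip3, Ndrg1 and Egln3, transcripts known to be induced by low oxygen, were low in both of its libraries. The difference of replicate 2 from the other replicates is therefore given below as a description, with no test.

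The cells came from the hearts of rats of the strain SD, aged 1 to 3 days, and were enriched by differential adherence, in which fibroblasts attach to the dish sooner than cardiomyocytes. They were kept for 24 h with insulin, transferrin, selenium and 0.2 mM AraC, an inhibitor of DNA synthesis, then starved of serum and held at 1% oxygen for 48 h. Sorting was by the DNA dye Hoechst at 2 µg/mL into a 2n and a 4n fraction, each with 4 libraries described as independent experiments. These treatments were shared by all 8 libraries, replicate 2 included, and no library from normal oxygen was analysed here. How far a transcript responded to hypoxia could therefore not be measured in any replicate, and "lower" below means lower than in the other hypoxic replicates. A 4n signal can come from a cell with a tetraploid nucleus, a binucleated cell, a cell in the G2 or M phase, or a pair of 2n cells stuck together, and the labels do not separate these. The labels do not say how many pups were pooled for a culture.

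Both libraries of replicate 2 share a replicate number and the code at the start of their descriptions, so replicate 2 is 1 culture set against 3. An exact permutation test over cultures could not go below p = 0.25. The standard errors given with fold changes are those of a fit that treats the 8 libraries as independent, and they measure only the spread between these samples.

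Cells sense oxygen through prolyl hydroxylases, enzymes that need oxygen to mark the alpha subunits of hypoxia-inducible factors (HIF) for binding by VHL and destruction. When oxygen is scarce the alpha subunits persist, pair with ARNT and switch on genes for glucose uptake, glycolysis, lactate and acid export, removal of mitochondria and the growth of blood vessels. In heart muscle, which normally relies on mitochondrial respiration, this program shifts energy production toward glycolysis.

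Library totals ranged from 14783521 to 21033772 counts, with 21033772 in the 2n and 15551188 in the 4n library of replicate 2, so that 1 CPM (a count scaled to the library size) stood for 13.4 to 23.0 counts. Of 30957 genes in the table, 12983 passed the filter on low counts. Mitochondrial genes accounted for 2.87% to 3.82% of a 2n library (3.06% in replicate 2). Of a 4n library they took 3.71% in replicate 1 and 24.1% to 25.9% in the others (25.0% in replicate 2). The labelled cell type was checked against its markers: 12 cardiomyocyte markers together took 0.0601% to 0.122% of the counts in 2n and 0.534% to 3.06% in 4n. The 11 fibroblast markers took 4.80% to 6.2% in 2n and 2.45% to 5.47% in 4n. The 2n fraction thus carried little cardiomyocyte RNA in every replicate. In such bulk libraries fewer cells of a type and less RNA per cell cannot be told apart.

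A gene was counted as standing apart in replicate 2 if, in each fraction, its log2 CPM lay outside the range of the other 3 replicates, in the same direction, and at least 1 log2 unit from their mean. By this rule 245 genes were lower in replicate 2, 1.89% of those tested, and 26 were higher, 0.200%. Since replicate 2 was chosen on such genes, nothing is read from these counts. Both replicate 2 libraries lay below all 6 others for 954 genes (7.35%) and above all 6 for 816 (6.29%). The shares of 1.89%, 0.200%, 7.35% and 6.29% over all genes apply to every list and group count below, except those under other settings at the end. The differences from the other replicates in 2n and in 4n correlated across the 12983 genes at r = 0.58, a description in which both fractions share the same cultures and the genes are not independent. Of the 245 lower genes, 42 (17.1%) belong to the lists of HIF targets or of glycolysis used here, and 203 do not.

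**Figure D1:**
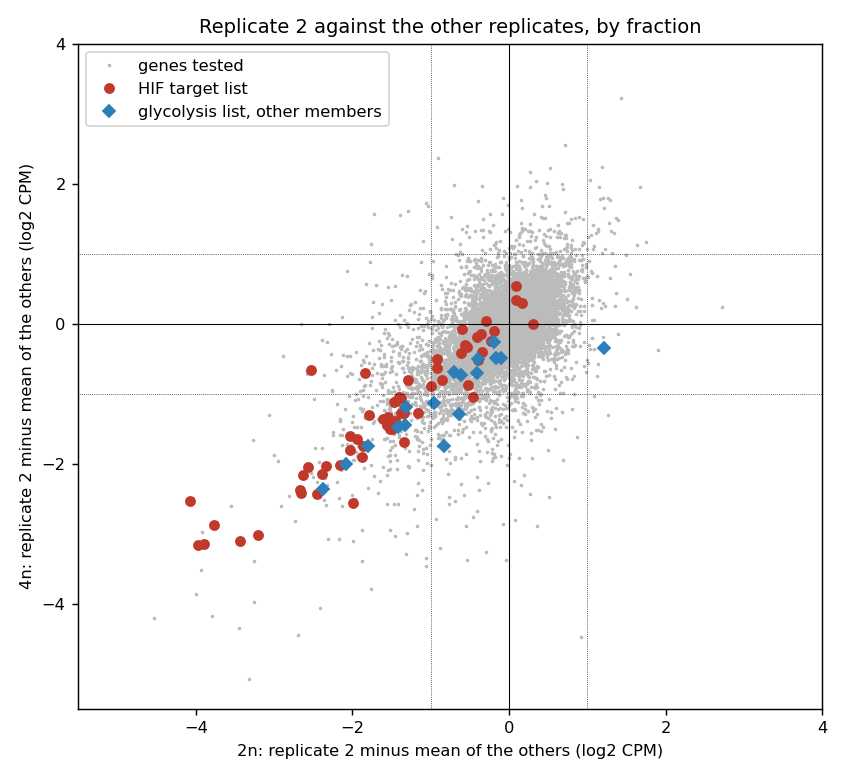
Each point is 1 of 12983 genes, placed by the log2 CPM of replicate 2 minus the mean of replicates 1, 3 and 4 in 2n (horizontal axis) and in 4n (vertical axis), with dotted lines at 1 log2 unit either way. Members of the HIF target list (red) and the other members of the glycolysis list (blue) lie mostly at the lower left, where 42 of their 77 tested members stand apart as lower and 0 as higher.

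The 3 genes that singled out replicate 2 were lower in it by 6.20-fold to 18.7-fold. Bnip3, on chr1:211248098-211265282 of Rnor 6.0, encodes a protein of the outer mitochondrial membrane that marks mitochondria for removal. Its level in 2n was 21.2 CPM in replicate 2 and 248, 185 and 167 CPM in replicates 1, 3 and 4. In 4n the values were 30.6 CPM and, in the same order, 215, 252 and 278 CPM. Every other library thus held several times the level of both replicate 2 libraries, and the log2 fold change of replicate 2 over the others was -3.13 ± 0.22 (± SE of the fit, 2 against 6 libraries).

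Ndrg1, on chr7:107734299-107775706, encodes a stress-responsive cytoplasmic protein linked to growth arrest. Its 2n level was 9.50 CPM in replicate 2 against 248, 88.8 and 133 CPM in replicates 1, 3 and 4, and its 4n level was 11.6 against 181, 44.7 and 138 CPM. The other replicates themselves spread widely, with replicate 3 lowest among them in both fractions, yet none overlapped replicate 2 (log2 fold change -3.70 ± 0.67). Egln3, on chr6:75050329-75075795, encodes the prolyl hydroxylase PHD3, which is both an oxygen sensor and a HIF target. It stood at 4.95 CPM in 2n and 38.2 CPM in 4n of replicate 2. The other replicates held 132, 48.1 and 96.6 CPM in 2n and 142, 354 and 214 CPM in 4n (log2 fold change -3.29 ± 0.61). The 4n library of replicate 2 lay below every library of the other replicates but held several times the Egln3 of its 2n library, so the shortfall was 18.7-fold in 2n and 6.20-fold in 4n.

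**Figure D2:**
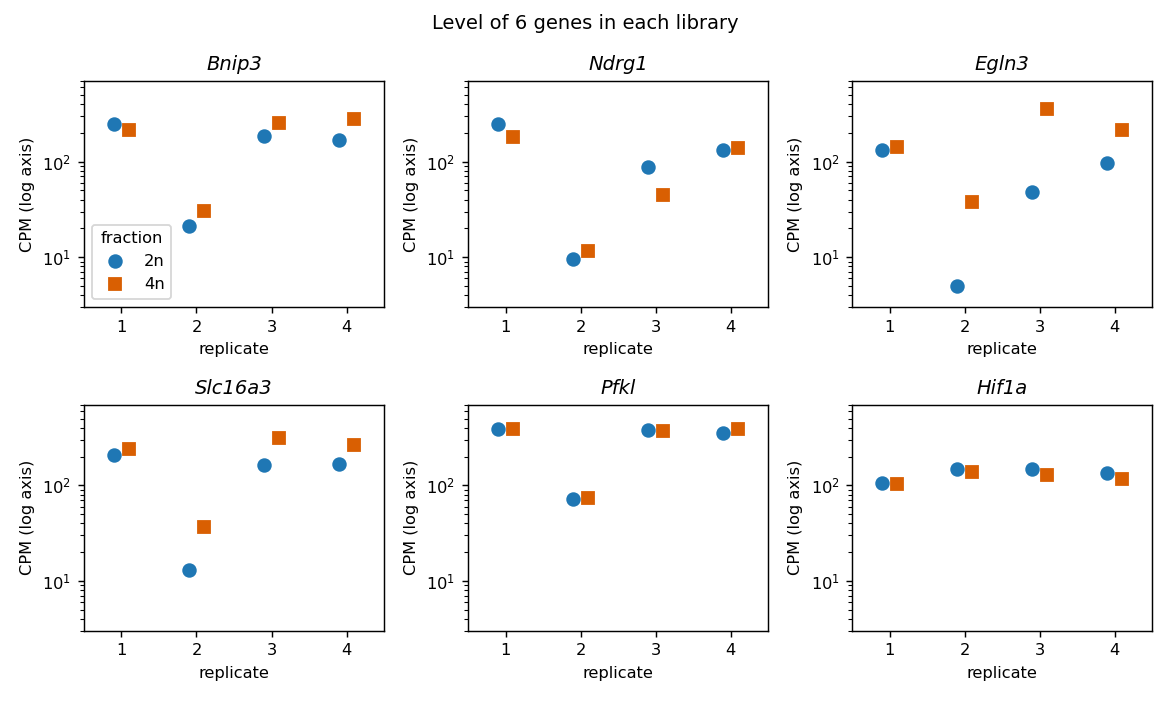
Level in CPM (logarithmic axis) of 6 genes in each library, by replicate, with 2n as circles and 4n as squares. Replicate 2 lies below every other library for Bnip3, Ndrg1, Egln3, Slc16a3 and Pfkl, while its Hif1a (148 CPM in 2n and 137 CPM in 4n) lies within the range of the 6 others.

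Of the 62 HIF target genes listed, 60 were tested. Slc2a3 stayed under the filter (at most 0.710 CPM in any library) and Egln1 is not analysed here. Replicate 2 stood apart as lower for 36 of the 60 and as higher for 0, against 1.89% and 0.200% of all genes. Both its libraries lay below all 6 others for 39, against 7.35% of all genes. The 36 include Bnip3, Ndrg1 and Egln3, which singled out replicate 2. As replicate 2 was chosen for low hypoxia genes, the counts and medians of the whole list describe that choice, and nothing further is read from them. The fold change was negative for 56 and positive for 4, with a median of -1.47 against -0.03 over all genes tested, and the lowest was -3.90. The median difference was -1.46 within 2n and -1.28 within 4n. Among the 36, the other replicates had a median SD of 0.357 log2 units within a fraction. Replicate 2 differed from their mean by a median of 1.91 log2 units in 2n and 1.72 in 4n. The rule that picked these genes requires a gap within each fraction, so a wide gap with little overlap is largely built in. For 34 of the 36 no library of the other replicates overlapped those of replicate 2; the exceptions were Angptl4 and Tfrc, where the ranges overlapped between fractions. The summed level of the list was 11180 CPM in 2n and 11443 CPM in 4n of replicate 2, and 18097 to 24801 CPM in the 6 others.

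**Figure D3:**
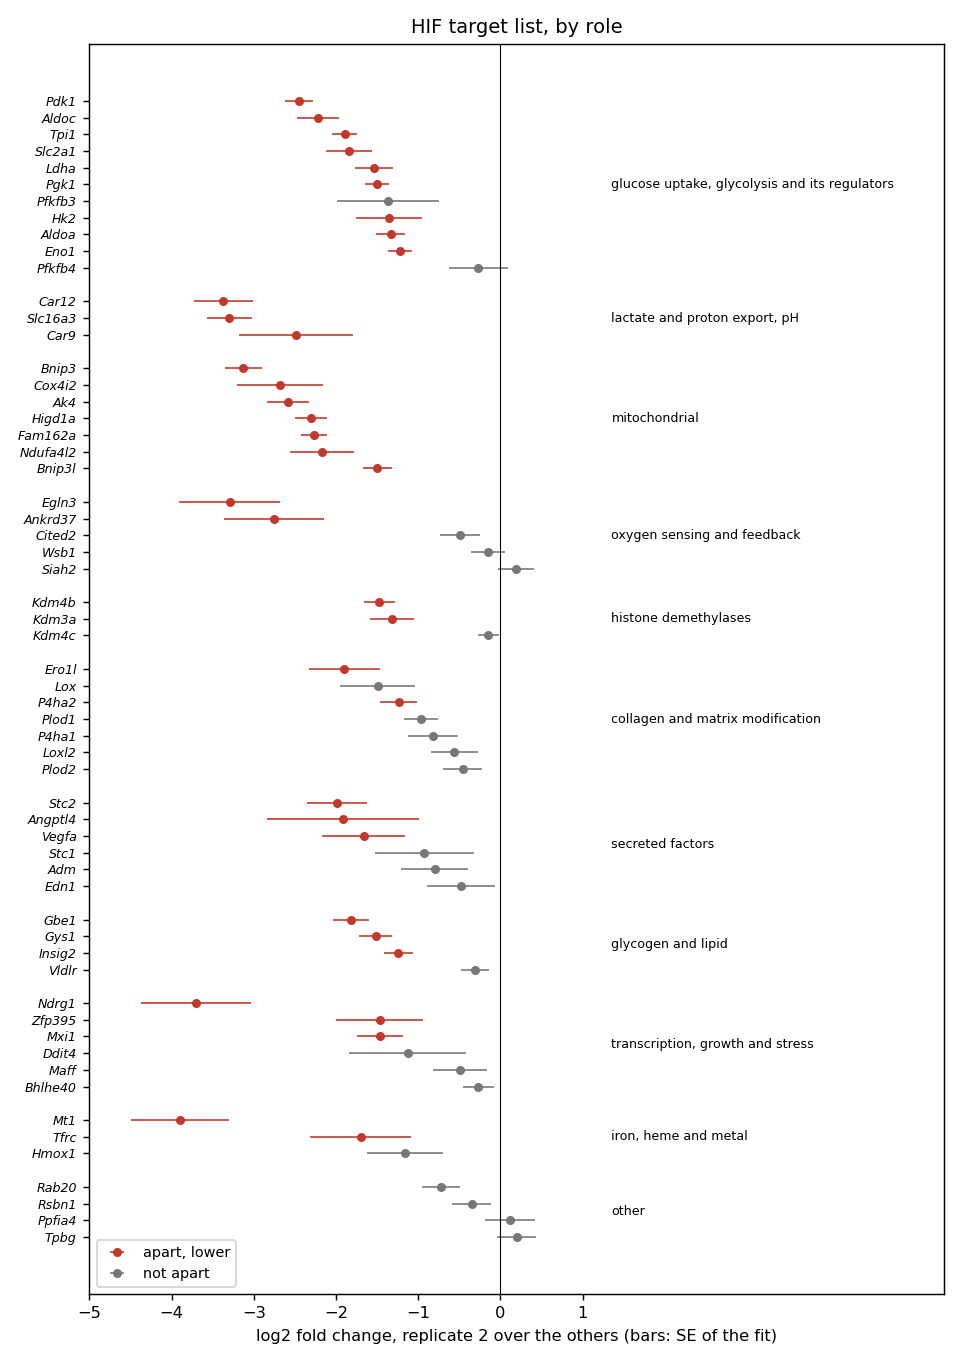
Log2 fold change of replicate 2 over the other replicates (points, with bars for the SE of the fit) for tested HIF targets, grouped by the role of their products. Red marks the 36 members that stand apart as lower; all 3 members for lactate and acid export and all 7 mitochondrial members are among them, while most grey members lie nearer to 0.

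By group median (-3.30) the widest gaps were in the export of lactate and acid. All 3 members of that group stood apart. Slc16a3, on chr10:110138586-110148358, encodes the lactate exporter MCT4. It measured 13.0 CPM in 2n of replicate 2 against 209, 162 and 167 CPM in replicates 1, 3 and 4, and 37.1 against 239.7, 312 and 267 CPM in 4n, which is 13.8-fold and 7.36-fold lower. Its log2 fold change was -3.30 ± 0.27, a difference many times the spread of the other replicates. Car12, on chr8:72405748-72460240, a membrane carbonic anhydrase that handles acid at the cell surface, gave 2.43 CPM against 37.6, 16.9 and 32.7 CPM in 2n and 2.83 against 27.6, 23.3 and 24.5 CPM in 4n. Car9, a carbonic anhydrase of the same kind and a widely used hypoxia marker, gave 7.59 against 37.1, 14.4 and 53.1 CPM in 2n and 5.58 against 47.4, 13.4 and 58.2 CPM in 4n. Replicate 3 was the lowest of the other replicates for both enzymes, and for Car9 it was closer to replicate 2 than to replicate 4.

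All 7 members that act in mitochondria stood apart as well, with a median log2 fold change of -2.31. Beside Bnip3, which helped to single out replicate 2, these were its relative Bnip3l (-1.50 ± 0.18), Cox4i2, Ndufa4l2, Higd1a, Fam162a and Ak4. Cox4i2, the isoform of a cytochrome oxidase subunit used in low oxygen, stood at 5.99 CPM in 2n and 7.44 CPM in 4n of replicate 2. The others held 51.7, 21.9 and 49.4 CPM in 2n and 46.3, 21.3 and 66.0 CPM in 4n. Ndufa4l2, which lowers the activity of respiratory complex I, gave 19.0 against 105, 60.7 and 97.5 CPM in 2n and 18.0 against 99.6, 41.2 and 96.1 CPM in 4n. For both genes replicate 3 was the lowest of the other replicates, still well above replicate 2. Higd1a, a small protein that associates with the respiratory chain, measured 15.1 against 104, 86.1 and 80.9 CPM in 2n and 28.5 against 109, 118 and 127 CPM in 4n. Fam162a, a mitochondrial protein linked to cell death in hypoxia, measured 40.9 against 244, 206 and 196 CPM and 59.7 against 249.6, 289 and 254 CPM. For both, the 6 other libraries lay close together. Ak4, a mitochondrial adenylate kinase, had a log2 fold change of -2.59 ± 0.25. In contrast with these HIF targets, 0 of 36 nuclear genes for the respiratory chain and ATP synthase stood apart, with a median of -0.10 (0.18 without replicate 3). The 12 tested protein-coding genes of the mitochondrial chromosome had a median of 0.22 and 0 apart, with -0.22 within 2n and 1.08 within 4n. The 4n value rests on replicate 1. These genes took 3.08% of its 4n counts, against 20.9%, 20.8% and 19.8% in replicates 2, 3 and 4. Without replicate 1 the median over both fractions was -0.07.

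Glucose uptake, glycolysis and their control formed the largest group, with 9 of 11 apart and a median of -1.51. Slc2a1, the glucose transporter GLUT1, stood at 68.3 CPM in 2n and 81.1 CPM in 4n of replicate 2. The others held 367, 198 and 212 CPM in 2n and 326, 238 and 264 CPM in 4n. Pdk1, the kinase that keeps pyruvate out of the citric acid cycle, gave 14.1 against 86.7, 73.9 and 72.0 CPM in 2n and 17.5 against 82.2, 109 and 93.7 CPM in 4n. The gap for Pdk1 was nearly equal in the 2 fractions, 5.51-fold and 5.43-fold (log2 fold change -2.45 ± 0.17). Hk2, the hexokinase that holds glucose in the cell, gave 66.8 against 294, 133 and 154 CPM in 2n and 68.3 against 233, 113 and 120.2 CPM in 4n. Pfkfb3, which makes the activator of phosphofructokinase, lay below all other libraries in both fractions but missed the 1-unit minimum in 4n. It measured 13.0 against 116, 31.4 and 28.7 CPM in 2n and 20.7 against 39.6, 27.8 and 35.5 CPM in 4n, and replicate 1 alone was high in 2n.

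The wider glycolysis list also holds genes that were not chosen as HIF targets. Of 30 members 29 were tested, with a median of -1.37. Replicate 2 stood apart as lower for 16 and as higher for 0, against 1.89% and 0.200% of all genes. Both its libraries lay below all 6 others for 19, against 7.35% of all genes. These counts partly repeat those of the HIF list, which shares members with this one, and they too describe the choice of replicate 2. Both lists together held 77 tested members with 42 apart as lower, and the HIF list alone 60 with 36. The clearest glycolysis member outside the HIF list was Pfkl, on chr20:11393877-11415882, the liver-type phosphofructokinase that commits sugar to glycolysis. Replicate 2 held 72.3 CPM in 2n and 74.1 CPM in 4n, and the others 394, 382 and 358 CPM in 2n and 392.2, 369.6 and 385 CPM in 4n. The 6 other libraries differed little among themselves, and the log2 fold change was -2.38 ± 0.13. Other steps were lower too: glucose phosphate isomerase Gpi by 3.48-fold in 2n and 3.37-fold in 4n, and phosphoglycerate mutase Pgam1 by 2.52-fold and 2.73-fold. Pyruvate kinase Pkm was lower by 2.67-fold and 2.77-fold, and lactate dehydrogenase Ldha by 2.89-fold and 2.92-fold. Gapdh, often used as a reference gene, gave 363 against 791, 688 and 641 CPM in 2n and 457 against 838, 1187 and 1011 CPM in 4n, below every other library though under the 1-unit minimum in 2n. The members that did not stand apart included isoforms of the same steps. Hk1 had a log2 fold change of -0.46 ± 0.21, Pfkp of -0.69 ± 0.19, Pdk3 of -0.23 ± 0.12 and Ldhb of -0.50 ± 0.58. Several of these enzymes have near-identical copies: loci named as like triosephosphate isomerase and like gamma-enolase on chromosome 9 had log2 fold changes of -1.97 and -2.13, so the values of Tpi1 (-1.90 ± 0.15) and Eno2 (-2.07 ± 0.26) are uncertain, as the counting could split reads between copies. The summed level of the list was 4488 CPM in 2n and 5437 CPM in 4n of replicate 2, and 11418 to 15911 CPM in the others.

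Glycogen and lipid handling showed the same direction, with 3 of 4 apart. Gbe1, which branches glycogen, stood at 16.3 against 65.7, 52.1 and 73.6 CPM in 2n and 24.0 against 59.7, 83.9 and 85.8 CPM in 4n. Gys1, the muscle glycogen synthase, stood at 87.2 against 307, 220.0 and 220.5 CPM and 85.0 against 280.1, 253 and 198 CPM. Neither gene overlapped between the groups. Insig2, which restrains sterol synthesis, was just inside the minimum, with a difference of -1.04 log2 units in 4n. Pygl, a glycogen phosphorylase outside the list, was lower by 7.06-fold in 2n and 5.73-fold in 4n.

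Secreted factors were mixed, with 3 of 7 apart. Vegfa, the main growth factor for blood vessels, stood at 227 CPM in 2n and 292 CPM in 4n of replicate 2. The others held 1422, 467 and 729 CPM in 2n and 1185, 473 and 670.3 CPM in 4n, so replicate 1 was the highest and replicate 3 the nearest to replicate 2. The log2 fold change of Vegfa was -1.67 ± 0.50. Stc2, a secreted glycoprotein, was lower by 4.15-fold and 3.79-fold, whereas Adm, the vessel-relaxing peptide adrenomedullin, gave 62.2 against 175, 82.0 and 112 CPM in 2n and 61.2 against 139, 49.8 and 94.2 CPM in 4n. In 4n the Adm of replicate 3 lay below that of replicate 2. In the wider list of vessel growth factors and their receptors 3 of 17, Vegfa, Pgf and Apln, stood apart as lower, against 1.89% of all genes. That list had 0 apart as higher and a median of -0.71 (-0.27 without replicate 4). Apln encodes apelin, a peptide acting on heart and vessels, and measured 2.21 against 40.8, 15.2 and 32.3 CPM in 2n and 5.20 against 32.4, 15.5 and 67.1 CPM in 4n.

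Matrix enzymes had 2 of 7 apart and a median of -0.96. P4ha2, a collagen prolyl hydroxylase, was just inside the minimum, at -1.38 log2 units in 2n and -1.06 in 4n. Plod1, a collagen lysyl hydroxylase, was just outside it, at -0.99 and -0.89, although both its libraries lay below all 6 others. Ero1l, which drives disulfide formation in secreted proteins, gave 80.2 against 517, 220.5 and 310.0 CPM in 2n and 71.0 against 336, 141 and 209 CPM in 4n. Lox, the lysyl oxidase that crosslinks collagen, had a wide gap in 2n and a narrow one in 4n. It measured 249 against 1466, 1165 and 1759.6 CPM in 2n, but 617 against 1226, 638 and 1198 CPM in 4n, where replicate 3 was nearly as low as replicate 2.

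Among regulators, the histone demethylases Kdm3a (-1.32 ± 0.27) and Kdm4b (-1.47 ± 0.19) stood apart and Kdm4c (-0.15 ± 0.13) did not. Mxi1, a repressor that opposes MYC, stood at 18.4 against 66.5, 36.2 and 53.4 CPM in 2n and 18.1 against 51.6, 35.7 and 58.0 CPM in 4n. Ddit4, an inhibitor of mTOR, was below all 6 others but close to replicates 3 and 4. It measured 24.6 against 122, 25.2 and 28.5 CPM in 2n and 24.8 against 88.2, 26.0 and 34.9 CPM in 4n, so its distance from the mean came mostly from replicate 1. Ankrd37, a small ankyrin protein, was apart at low levels, with 0.391 against 5.85, 2.01 and 2.27 CPM in 2n and 0.595 against 4.46, 2.58 and 2.48 CPM in 4n. Tfrc, the transferrin receptor that brings iron into the cell, gave 38.2 against 71.3, 145 and 87.8 CPM in 2n and 71.7 against 95.6, 535 and 242 CPM in 4n.

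Most of the oxygen sensing machinery did not stand apart. Of 16 tested members, 1 stood apart, Egln3, which had helped to single out replicate 2, and the median was 0.10. Hif1a, the HIF alpha subunit found in most cells, stood at 148 CPM in 2n and 137 CPM in 4n of replicate 2. The others held 106, 149 and 135 CPM in 2n and 105, 127 and 118 CPM in 4n, so in 2n replicate 2 lay within their range and in 4n just above it (0.21 ± 0.15). Epas1, the other main alpha subunit, was slightly above every other library, at 138 against 70.1, 76.1 and 127 CPM in 2n and 129 against 74.8, 61.3 and 124 CPM in 4n. The log2 fold changes of Arnt (-0.05 ± 0.18), Vhl (-0.19 ± 0.15), Egln2 (-0.18 ± 0.12) and Hif1an (-0.14 ± 0.24), the asparagine hydroxylase that blocks HIF activity, were small. Transcript levels say nothing of the amount of HIF protein, which is controlled mainly by its destruction and was not measured.

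Mt1 and Mt1m, metallothioneins that bind zinc and copper, were among the 15 genes furthest apart as lower. Mt1, on chr17:78793336-78793724, gave 0.304 against 4.21, 6.89 and 9.13 CPM in 2n and 0.818 against 4.57, 9.37 and 13.0 CPM in 4n. Mt1m gave 0.998 against 8.60, 5.25 and 12.5 CPM and 0.892 against 4.78, 4.15 and 11 CPM. Metallothionein genes are near copies of each other, and the table lists the symbol Mt1 at more than 1 gene, so these values are uncertain; Mt1 is also in the HIF list. Atp7b, on chr16:74865516-74945286, a copper-exporting pump also among the 15, gave 0.217 against 6.83, 4.08 and 4.31 CPM in 2n and 0.446 against 5.53, 6.44 and 6.94 CPM in 4n. These replicate 2 levels rest on few counts. G0s2, an inhibitor of fat breakdown, was better covered, at 4.82 against 129, 49.3 and 65.6 CPM in 2n and 7.44 against 108, 34.7 and 54.5 CPM in 4n. RT1-CE6, a class I histocompatibility gene, had 0 counts in the 4n library of replicate 2. The other 4n libraries held 9.51, 0.501 and 2.56 CPM, the lowest of them close to replicate 2. Its 2n levels are not listed here. Genes of that family share sequence, so the value of RT1-CE6 is uncertain.

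Among the 26 genes that stood apart as higher, 14 had a symbol and a mean of 5 CPM or more. Tnfrsf11b, on chr7:93798545-93826665, encodes osteoprotegerin, a secreted decoy receptor. It stood at 601 CPM in 2n and 584 CPM in 4n of replicate 2, against 208, 325 and 289.7 CPM and 196, 128 and 197 CPM. Hgf, the hepatocyte growth factor, was higher by 2.40-fold in 2n and 3.14-fold in 4n, and Itga4, an integrin subunit, by 2.17-fold and 3.28-fold. Both replicate 2 libraries lay above all others for each of these. Car3, a carbonic anhydrase of muscle and fat, gave 52.5 against 15.7, 26.9 and 24.0 CPM in 2n and 47.5 against 16.8, 18.4 and 17.1 CPM in 4n, opposite in direction to Car9 and Car12. Sdc2, a heparan sulfate proteoglycan, gave 485 against 163, 315 and 241 CPM and 462 against 193, 163 and 167 CPM.

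The higher genes also held Mylk, the kinase that activates smooth muscle myosin, and Myh11, the smooth muscle myosin heavy chain. Mylk stood at 367 against 113, 208 and 259 CPM in 2n and 333 against 126, 121 and 181 CPM in 4n. Myh11 stood at 308 against 56.0, 118 and 291 CPM in 2n and 236 against 94.8, 85.8 and 196 CPM in 4n, with replicate 4 close to replicate 2. In the list of 12 markers of smooth muscle and pericytes, Myh11 was the 1 apart as higher and 2 were apart as lower, with a median of 0.41. The actin gene Acta2 gave 4430.4 against 2024, 3117 and 2433 CPM in 2n and 4712 against 2266, 2609 and 2712 CPM in 4n, above every other library though short of the minimum. The channel genes Abcc9 (-1.61 ± 0.72) and Kcnj8 (-1.60 ± 0.70), which mark pericytes, were the lower ones, so the list did not move as a block. Its summed share was 1.19% of counts in 2n and 1.01% in 4n of replicate 2, and 0.633% to 0.887% in the others.

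Cardiomyocyte, endothelial and epicardial markers had mostly negative fold changes in replicate 2. Their summed shares were lowest there in 2n, while in 4n another replicate was as low or lower for each. All 12 cardiomyocyte markers had a negative fold change, with a median of -1.13 and 0 apart; without replicate 3 the median was -0.73, and within 4n -0.58. In 2n they summed to 0.0601% of counts in replicate 2 and to 0.0892% to 0.122% in the others. In 4n the sums were 0.830% in replicate 2 and 0.534% to 3.06% in the others, so replicate 2 was lowest in 2n but not in 4n. Myh7, a myosin heavy chain of heart muscle, stood at 58.3 against 257, 134 and 236 CPM in 2n and 1930.4 against 1194, 7649 and 2520.4 CPM in 4n. No cardiomyocyte marker was at 0 in replicate 2. The 9 endothelial markers tested were also all negative, with a median of -1.40 and 1 apart (Vwf). That median rests largely on replicate 4: it was -0.26 without replicate 4, and -0.69 within 2n and -0.77 within 4n. Cldn5 was at 0 in the 2n libraries of replicates 2 and 3. Their summed share in 2n was 0.00487% in replicate 2 and 0.00494% to 0.00845% in the others, and in 4n 0.00849% against 0.00849% to 0.0433%, the highest being replicate 4. Of 8 epicardial markers 7 were negative, with a median of -1.20 and 1 apart (Msln). Their share was 0.00929% in 2n and 0.00669% in 4n of replicate 2, against 0.0108% to 0.0125% and 0.00667% to 0.0139%. The 11 fibroblast markers, by far the most abundant set in 2n, had a median of 0.10 with 0 apart, and took 6.0% of counts in 2n of replicate 2 against 4.80% to 6.2% in the others, and 4.48% in 4n against 2.45% to 5.47%. The part of these cell type differences in the HIF and glycolysis values was not tested.

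Genes of DNA replication lay slightly higher in replicate 2. Of 24 S phase genes 0 stood apart, but 14 lay above all 6 other libraries, against 6.29% of all genes, and 23 had a positive fold change, with a median of 0.56 (0.68 within 2n and 0.44 within 4n). Mcm5, a subunit of the helicase that opens DNA, gave 73.7 against 27.7, 48.6 and 39.0 CPM in 2n and 65.9 against 46.3, 47.0 and 36.2 CPM in 4n. Cdt1, which loads that helicase, gave 13.7 against 9.39, 7.95 and 7.24 CPM and 18.3 against 9.62, 10.3 and 6.94 CPM. Replicate 2 was the highest in each case, by less than the 1-unit minimum in 2n. Pcna, the sliding clamp, gave 87.4 against 34.6, 70.8 and 50.7 CPM in 2n and 88.0 against 41.7, 82.6 and 64.9 CPM in 4n, with replicate 3 near replicate 2.

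Genes of the integrated stress and unfolded protein responses were likewise slightly higher, with 0 of 27 apart and a median of 0.36. In this list 13 lay above all 6 others, against 6.29% of all genes. Creld2, a secreted chaperone of the endoplasmic reticulum, gave 51.3 against 22.8, 31.6 and 28.8 CPM in 2n and 50.0 against 25.2, 25.8 and 28.3 CPM in 4n. Slc7a11, the cystine importer, gave 69.9 against 46.6, 53 and 46.5 CPM and 69.5 against 43.7, 23.8 and 19.3 CPM. The chaperone Hspa5 had a log2 fold change of 0.44 ± 0.14. Within the list, the stress regulators Atf4 (0.20 ± 0.19) and Ddit3 (-0.04 ± 0.34) lay close to 0.

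The lists of ribosomal proteins (28 tested, median 0.00), heat shock genes (11, 0.01), cholesterol synthesis (20, 0.08), collagens and matrix (33, 0.09), and YAP and serum response targets (17, 0.18) had 0 members apart and medians near that of all genes. NRF2 antioxidant genes (16, -0.22) and p53 targets (15, -0.40) also had 0 apart. The 24 inflammatory genes had 0 apart and a median of -0.62, but there replicate 4 had the highest summed share in both fractions. Il6, a cytokine, gave 1.30 against 1.83, 1.01 and 19.9 CPM in 2n and 1.04 against 2.20, 0.644 and 26.9 CPM in 4n, so replicate 2 was near replicates 1 and 3. In the interferon list 2 of 24 (Ifit3 and Cxcl10) were apart as lower, against 1.89% of all genes. There replicate 4 was again highest in summed share, and the median was -0.24. Of 20 immediate early genes, 1 (Atf3) was apart as lower, and the median was -0.36. Without replicate 4 the inflammatory median was 0.09 and the interferon median 0.18, and those of the immediate early genes, p53 targets and NRF2 genes were -0.23, -0.22 and -0.11. Macrophage markers (4 of 12 tested, median -0.79) and Schwann and neuronal markers (3 of 8, median -0.43) had 0 apart, and no erythroid marker passed the filter.

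**Figure D4:**
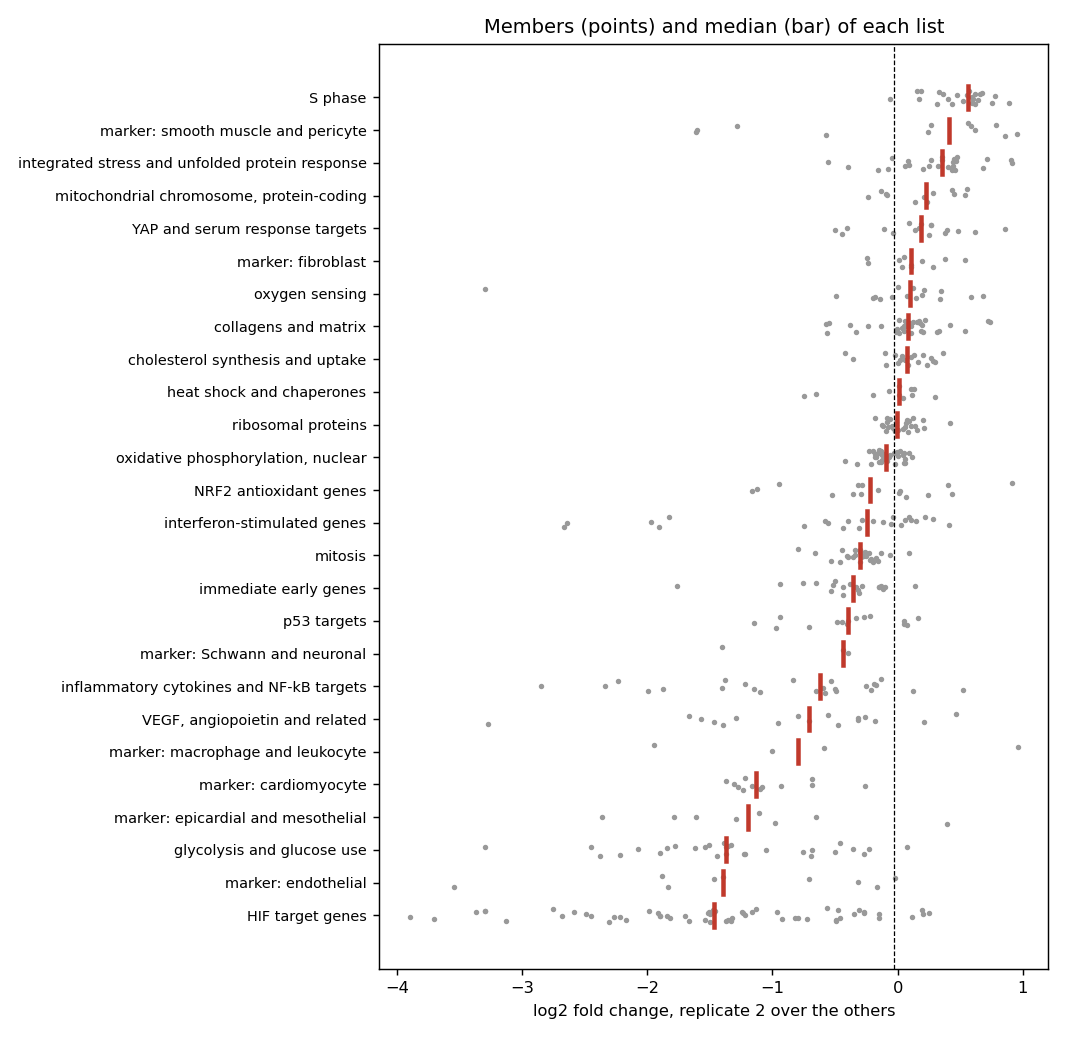
Log2 fold change of replicate 2 over the other replicates for the tested members (points) of each gene list, with the median of each list as a bar and the median of all genes, -0.03, as a dashed line. The HIF target and glycolysis lists lie lowest along with the small endothelial, epicardial and cardiomyocyte marker lists, and the S phase list lies highest, at 0.56.

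What the choice of replicate 2 did not use is the difference between its 2 fractions, and this was tested: whether the 4n to 2n difference of a gene in replicate 2 differed from that in replicates 1, 3 and 4. By edgeR's quasi-likelihood test of the interaction, 0 of 12983 genes (0%) had a larger and 0 (0%) a smaller difference, with Benjamini-Hochberg adjustment (smallest adjusted p = 1.00). At an unadjusted p under 0.05, 21 genes had a larger (0.162%) and 86 a smaller difference (0.662%), and DESeq2 and limma-voom also called 0 and 0 after adjustment. Replicate 2 has 1 library in each fraction, which is assumed to vary as the others do. The model had no term for the replicate, so spread shared by both fractions of a culture stayed in its error. Both shares at an unadjusted p under 0.05 were far below that level, so the interaction test was conservative. Its 0 calls therefore do not show that the 4n to 2n differences were alike. The 3 genes that singled out replicate 2 had interaction values of 0.21 ± 0.39 for Bnip3, 0.66 ± 1.13 for Ndrg1 and 1.59 ± 0.91 log2 units for Egln3 (± SE). None of these differences passed. For the HIF list the median interaction was 0.22 against -0.01 over all genes, and 2 of 60 members, Lox (1.83 ± 0.58) and Slc16a3 (0.91 ± 0.35), had an unadjusted p under 0.05.

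The 86 genes included 21 of the 29 tested mitosis genes, the list with the most members at that level, none of which passed after adjustment. In all 29 the 4n to 2n difference was smaller in replicate 2, as it was in 6651 of the 12983 genes tested. The median interaction of the 29 was -0.93. Bub1b, a kinase of the spindle checkpoint, stood at 31.3 CPM in 2n and 21.5 CPM in 4n of replicate 2. The other replicates held 29.0, 26.4 and 24.7 CPM in 2n and 41.3, 45.9 and 39.2 CPM in 4n, so the level was higher in 4n than in 2n in replicates 1, 3 and 4 and lower in replicate 2 (interaction -1.20 ± 0.29). Ccnb1, the cyclin that starts mitosis, gave 27.2 CPM in 2n and 28.0 CPM in 4n of replicate 2, against 25.2, 24.4 and 22.6 and 46.1, 54.7 and 52.7 CPM. For Ccnb1 the 4n and 2n libraries of replicate 2 were thus alike, while 4n was higher in each other replicate. Cdc20, which triggers the exit from mitosis, had an interaction of -1.25 ± 0.35, and Birc5, the survivin of the dividing spindle, of -1.36 ± 0.36. The median 4n minus 2n difference over the list was -0.31 log2 units in replicate 2, and 0.37, 0.77 and 0.86 in replicates 1, 3 and 4. The 29 values come from the same 8 libraries and are not independent. How many had an unadjusted p under 0.05 rested on the other replicates. Without replicate 4 it was 5 of 29, beside 16 of all genes with a smaller difference at that level. Without replicate 3 it was 10, beside 45 of all genes. With the replicate number as a block it was 28 of 29, beside 154 of all genes, again with 0 past adjustment.

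For S phase genes the median 4n minus 2n difference was -0.14 in replicate 2 and 0.39, -0.01 and 0.00 in replicates 1, 3 and 4. For the HIF list it was 0.16 in replicate 2 and -0.14, -0.08 and 0.06 in the others, close to 0 in each. Cardiomyocyte markers were higher in 4n in every replicate, by a median of 4.64 log2 units in replicate 2 and 2.31, 5.58 and 3.79 in replicates 1, 3 and 4.

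**Figure D5:**
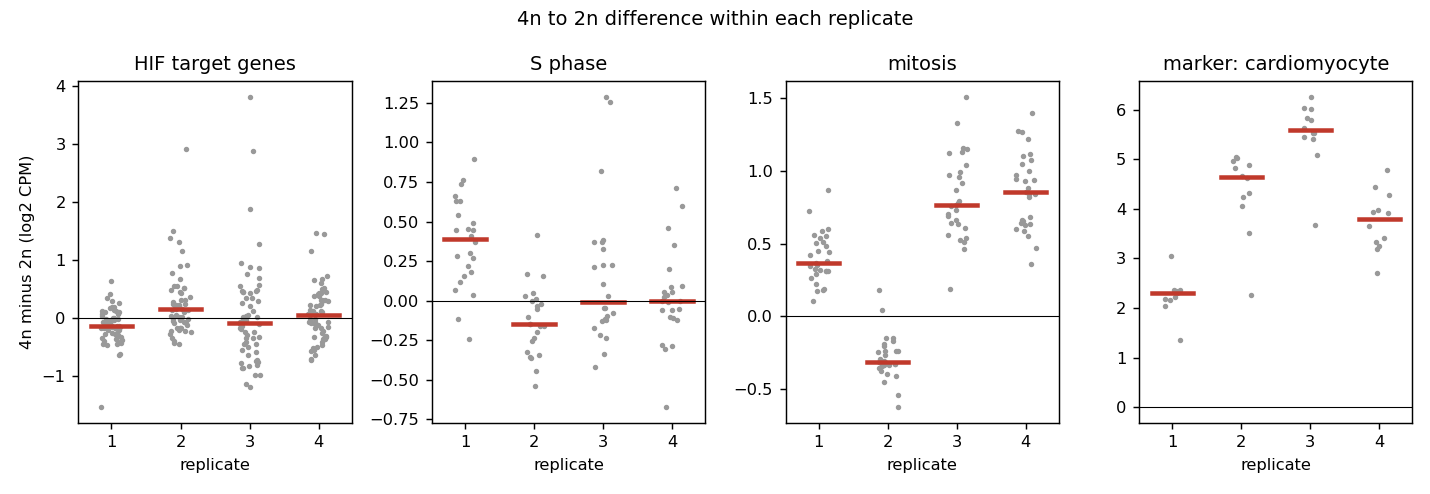
Log2 CPM in 4n minus 2n within each replicate for the members (points) of 4 gene lists, with the median as a bar. For mitosis genes the median lies below 0 in replicate 2 (-0.31) and above 0 in replicates 1, 3 and 4; for cardiomyocyte markers it lies above 0 in all 4.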

How the data were processed

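Messenger RNA of 8 hypoxic libraries was sequenced. The submitters' processing notes name HISAT2 2.0.4 and the build Rnor 6.0, which is of Rattus norvegicus, although the labels name Rattus rattus. For the counting tool and the strand, the setting is not given in the sources used here, so genes overlapping on opposite strands cannot be told apart. Per the file headers, the authors deposited raw counts and FPKM values of 30957 genes in all 8 libraries. These deposited counts are whole and not normalized. The deposited FPKM values were used only as an alternative, as log2 of FPKM plus 0.1.

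Groups and replicate numbers came from the sample titles. Genes were kept by filterByExpr (12983 genes), libraries were scaled by TMM, and log2 CPM used a prior count of 2. Replicate 2 was described against the others by the range rule given with the results and by edgeR 4.0.16 (limma 3.58.1, R 4.3.3) with fraction as covariate. The one quantity for which a test is reported was the interaction of fraction and replicate 2. It was tested by edgeR's quasi-likelihood test, two-sided, with Benjamini-Hochberg adjustment over all genes and a threshold of 0.05. DESeq2 1.42.0 and limma-voom were alternatives. Deviations from the group means correlated between same-numbered libraries at 0.43, 0.58, 0.27 and 0.65 for replicates 1 to 4. Same-numbered fractions were read as 1 culture in the pair differences and in the replicate block alternative. The main fit and the main interaction test had no replicate term and ignored the pairing. No protocol states the pairing, which rests on the correlations and on the codes that descriptions share. The procedures were run on simulated counts with planted shifts, drawn independently for each library and with a dispersion set below that estimated from the data. That run had no culture shared between fractions, so it does not show how the procedures perform on these data.

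The choice of replicate 2, its 3 marker genes, the 19 gene lists and the 8 marker lists were made with earlier results of these data known. The grouping of HIF targets by role was made after their values were seen. Named genes were a fixed set of 30 (28 tested), the 15 genes per direction furthest apart with a symbol and at least 5 CPM, up to 4 members per list, and 6 per direction for the interaction. Some list members and near copies are named beside these for contrast, chosen after their values were seen. A member of the HIF list is counted with it but not reported here. Symbols at more than 1 gene, such as Pkm and Mt1, were read from the gene with the most counts.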

Additional observations from a re-analysis of the deposited data

Results flagged for a closer look

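A check of 77 groups of 4 values that the choice of replicate 2 did not use, namely totals, mitochondrial share, list shares by fraction and pair differences by list, found 8 with 1 value far from the other 3. Chance alone gives about 1 in 20. The number given is the gap to the nearest other value over the whole range, compared with the critical value of Dixon's test for 4 values. None of the 8 is a value of replicate 2.

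Of the 8, 5 concern the 2n library of replicate 4. Inflammatory genes took 0.350% of its counts and 0.0941% to 0.136% in the other 2n libraries (gap 0.837). Immediate early genes took 0.428% against 0.291% to 0.308% (gap 0.876), and p53 targets 0.185% against 0.114% to 0.120% (gap 0.914). Fibroblast markers were low, at 4.80% against 6.0% to 6.2% (gap 0.861). Schwann and neuronal markers were near the limit of detection, at 0.000865% against 0.000522% to 0.000547% (gap 0.927). In 4n, replicate 4 stood out for endothelial markers, at 0.0433% against 0.00849% to 0.00965% (gap 0.967).

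The 4n library of replicate 1 held 3.71% of its counts in mitochondrial genes, against 24.1% to 25.9% in the other 4n libraries (gap 0.920). The protein-coding genes of the mitochondrial chromosome alone took 3.08% against 19.8% to 20.9% (gap 0.937).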

How the results depend on the processing

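The counts and folds against the other replicates describe the choice of replicate 2. Over 10 other settings, the HIF targets apart as lower numbered 29 (without replicate 1) to 39 against 36. The glycolysis genes numbered 15 to 18 against 16. These settings for the list counts were added after seeing the data. Over all genes the lower count was 245 in the main analysis and 320 without replicate 1. It was 423 without replicate 3 and 560 within 2n, where the HIF count was 39 in each. Leaving out replicate 1, 3 or 4 gave a HIF median of -1.54 to -1.26, a glycolysis median of -1.42 to -1.27, 220 to 423 genes apart as lower and 22 to 51 as higher. Without replicate 3 the lower count was 423, and without replicates 3 and 4 the higher counts were 41 and 51. With no filter on low counts 50 were higher. Within 2n alone 560 genes were lower and 54 higher. Within 4n alone 583 were lower, 164 higher, and the glycolysis median was -1.28. A minimum of 0.58 log2 units gave 583 lower and 162 higher, and no minimum gave 1545 and 1419. An edgeR adjusted p under 0.05 with the same sign in both fractions, used here as a cutoff on the values that singled out replicate 2, kept 60 lower and 4 higher.

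Of 26 list medians 12 changed sign under at least 1 setting. For 3 the median had been beyond the spread between replicates: macrophage markers to 0.39 with no filter, and, within 2n, mitosis to 0.18 and Schwann and neuronal markers to 0.0933. For the other 9 it had been within that spread, among them inflammatory (0.09) and interferon genes (0.18) without replicate 4, cholesterol synthesis (-0.16) without replicate 1, nuclear respiratory chain genes (0.18) without replicate 3, and mitochondrial chromosome genes (-0.22), collagens (-0.03) and fibroblast markers (-0.04) within 2n. Without replicate 4 the endothelial median moved from -1.40 to -0.26. Among named folds, which were small for both, Arnt went from -0.05 to 0.15 without replicate 1 and Hif1an from -0.14 to 0.01 without replicate 3; 10 fold values moved by more than the spread between replicates while 500 did not. The cause of these shifts was not tested.

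The interaction had 0 genes larger and 0 smaller under each of its 16 other settings, the replicate block and each left-out library included. With the replicate block the smallest adjusted p was 1, with 74 larger and 154 smaller at an unadjusted p under 0.05. Depth limits genes at few counts in replicate 2, such as Atp7b and Mt1.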
